A study of Mus musculus with 16 samples.

Results

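The decision of a resting cell to enter the division cycle is carried out by D-type and E-type cyclins, the kinases they switch on and the inhibitors that hold those kinases in check. Mitogen signals raise the D cyclins, which pair with CDK4 and CDK6 and begin to phosphorylate the retinoblastoma protein. E2F factors are then released and switch on the E cyclins, which activate CDK2 and start DNA replication. The inhibitors p27 (Cdkn1b) and p57 (Cdkn1c) bind these complexes, and in blood-forming stem cells p57, CDK6 and the D cyclins are known for their part in how long the cells stay quiescent.

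The messenger RNAs of 10 such genes are described here: Ccnd1, Ccnd2, Ccnd3, Ccne1, Ccne2, Cdk2, Cdk4, Cdk6, Cdkn1b and Cdkn1c. They were picked by gene symbol for their role, with earlier results of these data known. All 10 were found by gene identifier among the 55414 genes of the count files. All 10 were among the 25081 genes with enough counts to be tested, Cdkn1c with 232 counts in the 16 libraries together and Cdk6 with 160687.

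The libraries hold polyadenylated RNA of mouse bone marrow cells labelled LT-HSCs (haematopoietic stem cells of long-term potential), in 2 genotypes, WT and Nat10-deficient (Nat10-/- in the titles). Nat10 acetylates cytidines in RNA. In both genotypes, bone marrow depleted of lineage-positive cells was cultured with stem cell factor, thrombopoietin and heparin, given 5 µM actinomycin D, an inhibitor of transcription, and sorted for stem cells at 0, 1, 3 or 5 h, and spike-in RNA (ERCC) was added in equal amount. The samples at 0 h are thus the cultured cells before the block acted. The sources used here give neither the allele of Nat10 nor the age of the mice, the titles name 32D cells, a myeloid line, in place of LT-HSCs, and a sort at 4 h named in the protocol is not analysed here.

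Each of the 8 groups of genotype and time has 2 files, and several properties of the libraries touch every result. The headers show 1 common alignment for the pair of files in 8 of 8 groups. The files of a pair differed by a chi-square per degree of freedom of 1.43 to 1.81, against 47.9 to 256 between neighbouring times, so p-values measure only the spread between files, which may be technical. Statements below that files of the 2 labels do not overlap share this limit, and the share of all genes without overlap was not counted. A fit with the files of each group summed, and a straight line over the times for each genotype, is therefore given beside the results. The spread in that fit is the departure of the group values from the lines, and not a spread between replicates. Total counts per library ran from 9142413 to 17274128. The ERCC share was 1.79% to 2.92% under the WT label and 0.0221% to 0.129% under the Nat10-deficient label. Nat10 mRNA was higher under the latter at 0 h (log2 0.33 ± 0.049 SE, edgeR adjusted p = 9.69e-10), slightly lower at 1 h (-0.12, edgeR adjusted p = 0.0421) and higher at 3 and 5 h (1.21 and 1.96). Counts over the whole gene do not check a deleted exon. Directions therefore hold between libraries as labelled.

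Antibody genes took 3.91% to 66.7% of gene counts, a share that would push every other gene down in a plain CPM. Levels are therefore given as CPM, counts scaled to an equal total, taken over the counts outside immunoglobulin and J-chain genes. All 14 genes of a list of HSC identity markers had counts in every group. Summed over that list, the CPM over all gene counts was 3291 to 3363 in WT at 0 h and 1342 to 1350 in the files labelled Nat10-deficient.

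Upstream sequence is shown first for Cdk4 and Cdk6, the pair with higher levels under the Nat10-deficient label at every time in every gene-based scaling tried. The windows are the 250 bases before the start site in RefSeq (GRCm38.p6, plus strand for both), from chr10:127063285-127063534 for Cdk4 and chr5:3343643-3343892 for Cdk6. Capitals mark the E-box CACGTG, a palindrome bound by MYC-type factors, and TTTNNCGC, an E2F-type motif searched on both strands; the motifs do not overlap here.
Cdk4: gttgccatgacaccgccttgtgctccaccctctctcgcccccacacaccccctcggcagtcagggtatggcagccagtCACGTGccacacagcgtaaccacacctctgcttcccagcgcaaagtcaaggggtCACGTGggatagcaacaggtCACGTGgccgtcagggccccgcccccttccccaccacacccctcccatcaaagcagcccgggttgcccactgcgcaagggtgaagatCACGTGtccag
Cdk6: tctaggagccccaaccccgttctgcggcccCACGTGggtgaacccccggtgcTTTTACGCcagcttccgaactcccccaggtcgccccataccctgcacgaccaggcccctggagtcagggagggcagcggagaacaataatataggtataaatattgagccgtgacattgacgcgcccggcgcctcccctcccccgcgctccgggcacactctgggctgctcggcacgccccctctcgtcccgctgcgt
Cdk4 held 4 E-boxes, at -172, -118, -98 and -11 from the start site, and Cdk6 held 1, at -220. Of 32851 windows of this length, 6.02% had at least 1 E-box and 7 windows (0.0213%) had 4 or more. The E2F-type motif stood at -198 in Cdk6 and, outside the pair, at -140 in Cdk2, against 4.28% of all windows. Windows were found for 6 of the 10 genes, and not for Ccnd1, Ccnd2, Ccne2 and Cdkn1c. Those of Ccne1, Cdk2, Ccnd3 and Cdkn1b held no E-box, although Ccne1, Cdk2 and Ccnd3 were also called higher at every time in the main scaling below. A match in letters is a description and not a bound site.

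Because the samples follow mRNA after transcription is blocked, 3′ untranslated regions were searched for the AU-rich nonamer TTATTTATT, a motif of short-lived mRNAs. It occurred in 2 of the 10 genes, Ccne2 and Cdk6, and in 6.59% of 21674 genes (GENCODE release M21). The sites are printed with 10 bases on each side and the nonamer in capitals, the first at base 1028 after the stop codon and the second at base 7715.
Ccne2: tcctagaaatTTATTTATTtaaacttgct
Cdk6: ttcatgtataTTATTTATTgctaagcctc
Among genes with a region of like length, 8.32% held the nonamer for Ccne2 and 45.6% for Cdk6, whose region is 10217 bases long.

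Before the block, the kinase Cdk4 had the highest level of these mRNAs per kilobase of annotated exon in both genotypes. Per kilobase of exon it stood at 112 CPM in WT at 0 h, followed by Ccnd2 at 65.5, Ccnd3 at 43.7, Cdk6 at 43.1, Ccnd1 at 33.0, Cdk2 at 26.9, Ccne1 at 20.1 and Ccne2 at 8.07. The inhibitors were lowest, Cdkn1b at 3.62 and Cdkn1c at 1.81. In that order only the files of Ccnd3 and Cdk6 overlapped. In the files labelled Nat10-deficient the order at 0 h was Cdk4 at 149 CPM per kilobase, Cdk6 at 83.6, Ccnd2 at 59.6, Ccnd3 at 50.2, Ccne1 at 33.2, Cdk2 at 30.7, Ccne2 at 17.3, Ccnd1 at 12.1, Cdkn1b at 4.11 and Cdkn1c at 0.589, with no overlap between neighbours. By this length Cdk6 thus ranked 2 instead of 4, and Ccnd1 8 instead of 5. The length takes in every annotated exon base of a gene, and the order between genes depends on it. For Ccnd3 it is 8775 bases, against 292 codons and a 3′ region of 915 bases in the transcript searched above. For Cdk4 it is 3249 bases, against 303 codons and 899 bases. With transcript lengths the order can differ, also at its top.

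**Figure D1:**
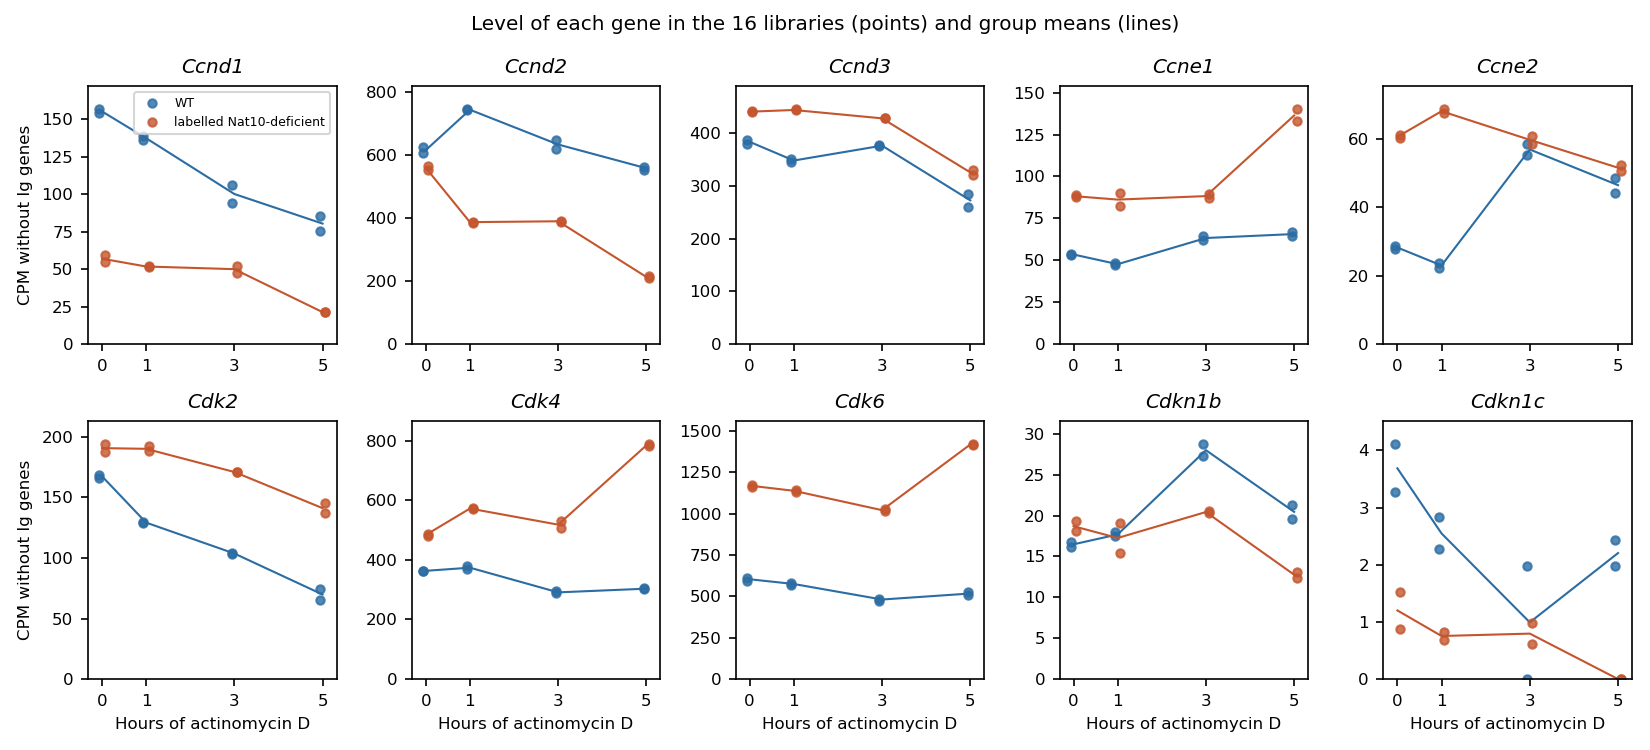
CPM outside immunoglobulin and J-chain genes (linear axes from 0) against hours of actinomycin D for each of the 10 genes. Points are single libraries, lines join the means of 2 files, blue is WT and orange the files labelled Nat10-deficient. Ccnd1 is lower and Cdk4 and Cdk6 are higher under the Nat10-deficient label at all 4 times.

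Relative to the other genes (TMM scaling), 7 of the 10 genes were higher and 2 lower in the files labelled Nat10-deficient at 0 h, by edgeR's quasi-likelihood test at an adjusted p of 0.05. Of all genes tested, 36.0% were called higher and 24.2% lower. At 1 h the 10 genes gave 6 higher and 3 lower, against 32.4% and 31.8% of all genes. The counts were 6 and 2 at 3 h, against 30.4% and 37.0%, and 6 and 4 at 5 h, against 34.2% and 30.1%. The median log2 difference of the 10 was 0.37, 0.72, 0.53 and 0.43 at the 4 times, and that of all genes 0.10, 0.00, -0.07 and 0.10. The median at 5 h is the same with Cdkn1c held at the bound given below. Ccnd3, Ccne1, Ccne2, Cdk2, Cdk4 and Cdk6, 6 genes, were called higher at all 4 times, and 1, Ccnd1, lower at all 4. The share of all genes called in the same direction at all 4 times was not counted, so these counts have no background.

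With the files summed, none of the 10 was called for the difference of the fitted lines at 0 h. Nor was any other gene (edgeR, 0% of genes in either direction, 1240 genes at an unadjusted p under 0.05). Departure from a straight line enters the spread of this fit. A lack of calls therefore does not show that levels at 0 h were alike. The summed differences of the 10 had adjusted p-values from 0.859 to 0.994. Before adjustment, 4 of the 10 (Ccne2, Cdk6, Ccnd1 and Ccne1) passed 0.05. Scaling on a list of long-lived mRNAs instead of TMM moved the median of all genes by -0.21, -0.40, -0.77 and -0.17 at 0, 1, 3 and 5 h. TMM, median-of-ratios (RLE) and long-lived scaling together gave 12 comparisons of time and scaling per gene. Cdk4 and Cdk6 were called higher in 12 and Ccnd1 lower in 12. The share of all genes called alike in 12 was not counted. Per ERCC count the median of all genes moved by 6.13, 5.64, 5.26 and 5.53 at these times, and 0 of the 10 were then called lower at any of them, Ccnd1 included. The direction of Ccnd1 is therefore one relative to other genes.

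**Figure D2:**
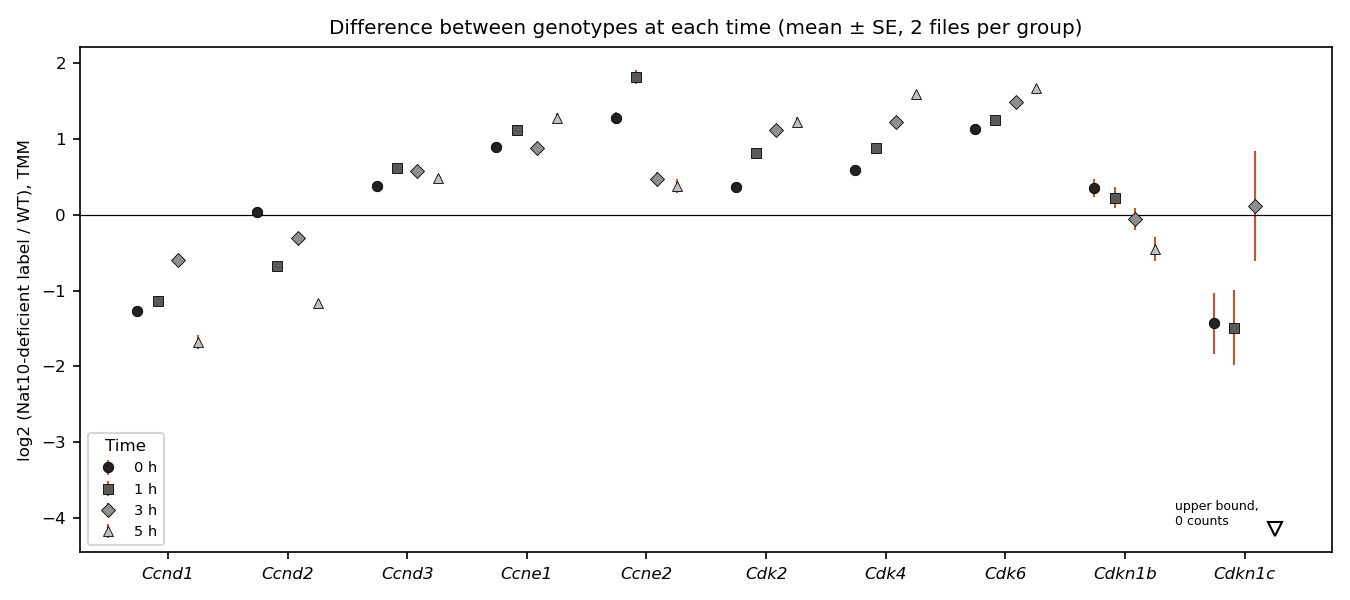
Log2 difference between files labelled Nat10-deficient and WT under TMM scaling for each gene at 0, 1, 3 and 5 h, as mean ± SE from the fit with 2 files a group. Values for Cdk4 climb from 0.59 to 1.59 and those for Ccnd1 lie from -1.68 to -0.60; the open triangle is the bound for Cdkn1c at 5 h, where the Nat10-deficient label had 0 counts.

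Ccnd1, the cyclin D gene most closely tied to mitogen signals, was the 1 member called lower under the Nat10-deficient label at all 4 times. Its gene (ENSMUSG00000070348) lies on chromosome 7, 144483668 to 144493662 (GRCm39, as all gene positions here). At 0 h its 2 WT files stood at 154 and 157 CPM and the files labelled Nat10-deficient at 54.9 and 59.3. The values were 136 and 139 against 52.3 and 51.4 at 1 h, 94.2 and 106 against 47.9 and 52.3 at 3 h, and 75.4 and 85.6 against 21.2 and 21.7 at 5 h. The groups did not overlap at any time. The difference at 0 h was log2 -1.27 ± 0.056 (SE, 2.41-fold, edgeR adjusted p = 8.05e-59). At the later times it was -1.14 ± 0.063, -0.60 ± 0.079 and -1.68 ± 0.092. Ccnd1 shares 23.4% of its exonic bases with LTO1 on the other strand, and counting did not use strand.

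Ccnd2 (ENSMUSG00000000184, chromosome 6, 127102125 to 127129156), the D cyclin with the highest level per kilobase of exon in WT, was under TMM not called different at 0 h and called lower afterwards. In the order of the times, its WT files held 627 and 607 CPM, 744 and 746, 650.2 and 619, then 554 and 565. The files labelled Nat10-deficient held 555 and 566, 389.7 and 386, 389.9 and 391, and 218 and 209. So on this scale WT was the higher label at each time, by a small gap before the block and a wide one at 5 h. The TMM difference at 0 h was log2 0.04 ± 0.027 (edgeR adjusted p = 0.251). Later differences were -0.68 ± 0.029, -0.30 ± 0.033 and -1.16 ± 0.035, all called. Without the second WT file at 5 h, which changes the shared spread, the difference at 0 h was 0.06 (edgeR adjusted p = 0.0448). Other scalings called it lower instead, RLE at -0.06 (edgeR adjusted p = 0.0359), long-lived at -0.35 (edgeR adjusted p = 1.51e-25) and DESeq2 at -0.06 (adjusted p = 0.0324).

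Ccnd3 (ENSMUSG00000034165, chromosome 17, 47815976 to 47910616), a D cyclin prominent in maturing blood cells, went the other way, by less. It stood at 387 and 379.5 CPM in WT and 439 and 442 in the files labelled Nat10-deficient at 0 h. Later pairs were 345 and 351 against 443 and 445, 376 and 377 against 428 and 428, then 261 and 284 against 320.4 and 331. The groups did not overlap at any time. Its log2 differences were 0.37 ± 0.030, 0.62 ± 0.032, 0.58 ± 0.037 and 0.48 ± 0.039 at 0, 1, 3 and 5 h under TMM, but -0.01, -0.18 and -0.09 at 0, 3 and 5 h under long-lived scaling. At those 3 times its direction thus depended on the scaling.

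Shares within a library do not depend on how it is scaled, and the make-up of D-cyclin mRNA differed between the labels. From group means per kilobase, Ccnd1 made up 23.2% of D-cyclin mRNA in WT at 0 h and 9.95% in the files labelled Nat10-deficient. Its share went to 19.7%, 16.2% and 15.9% in WT at the later times, and to 10.7%, 10.5% and 7.08% under the other label. Ccnd2 held 46.1% at 0 h and 55.2% at 5 h in WT, against 48.9% and 35.3%. Ccnd3 held 30.7% and 28.9% in WT, against 41.2% and 57.6%. At 5 h the largest share by this length was thus that of Ccnd2 in WT and that of Ccnd3 under the Nat10-deficient label. Such shares do depend on the length used for each gene. The exonic length is 8775 bases for Ccnd3 and 9409 for Ccnd2. The transcripts searched above hold 292 codons and a 3′ region of 915 bases for Ccnd3, against 289 and 5173 for Ccnd2. With transcript lengths the order of Ccnd2 and Ccnd3 in WT can differ.

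**Figure D3:**
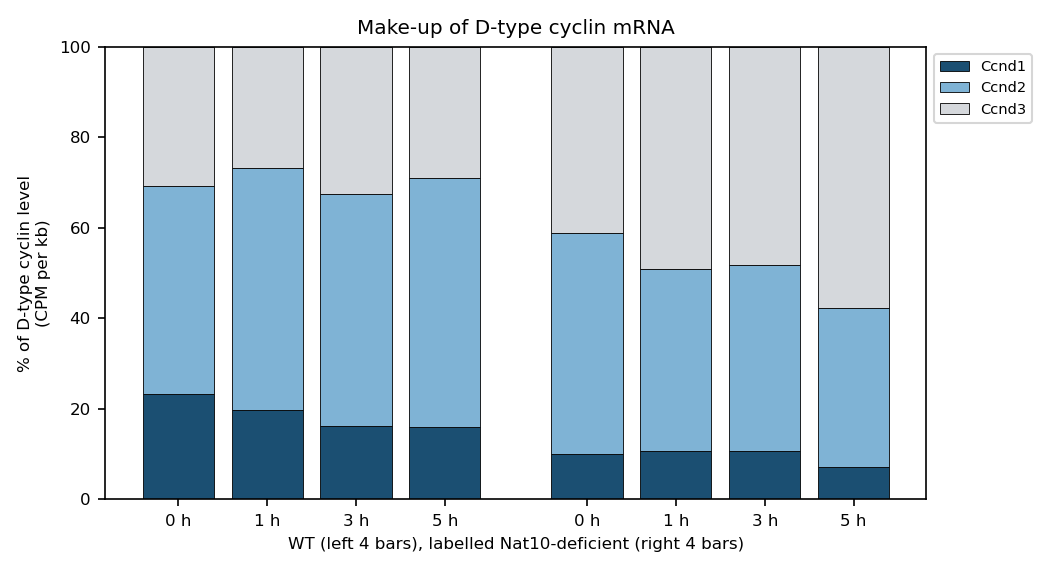
Share of each D cyclin in the summed D-cyclin level (CPM per kilobase of exon, means of 2 files), stacked to 100%, for 0, 1, 3 and 5 h in WT (left) and in files labelled Nat10-deficient (right). The Ccnd1 share at 0 h is 23.2% on the left and 9.95% on the right, and Ccnd3 reaches 57.6% in the last bar.

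Both E cyclins, which activate CDK2 at the entry into S phase, were called higher in the files labelled Nat10-deficient at all 4 times under TMM, with the exceptions under long-lived scaling given for each. Ccne1 (ENSMUSG00000002068, chromosome 7, 37797409 to 37806959) stood at 53.6 and 53.4 CPM in WT and at 87.8 and 88.8 under the other label at 0 h. Later pairs were 47.1 and 48.4 against 82.3 and 90.1, 61.9 and 64.7 against 87.3 and 89.3, then 64.4 and 67.0 against 139.9 and 133. The files did not overlap at any time. The log2 differences were 0.90 ± 0.060 (1.86-fold), 1.12 ± 0.068, 0.88 ± 0.078 and 1.28 ± 0.071 at 0, 1, 3 and 5 h. Long-lived scaling left 0.11 at 3 h (edgeR adjusted p = 0.22). No other gene shares exonic bases with Ccne1.

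Ccne2 (ENSMUSG00000028212, chromosome 4, 11191351 to 11204779), the gene printed above with an AU-rich site, differed most between the labels at 0 and 1 h. In the order of the times, its WT files held 28.7 and 27.7 CPM, 23.7 and 22.3, 55.1 and 58.5, then 44.2 and 48.6. Under the Nat10-deficient label they held 60.1 and 60.9, 67.5 and 68.5, 58.4 and 60.9, and 50.6 and 52.4. At 3 h the files overlapped, and at the other times they did not. The log2 differences were 1.27 ± 0.078 (2.42-fold), 1.82 ± 0.090, 0.47 ± 0.092 and 0.38 ± 0.095 over the 4 times, the last 2 turning to -0.30 and -0.20 under long-lived scaling. Ints8 on the other strand shares 17.4% of its exonic bases.

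Cdk6 (ENSMUSG00000040274, chromosome 5, 3391485 to 3581008), the D-cyclin kinase prominent in blood-forming cells, had the largest difference among the kinases. At 0 h it stood at 612 and 595 CPM in WT and 1163 and 1176 in the files labelled Nat10-deficient. Later pairs were 578 and 571 against 1144 and 1133, 475 and 487 against 1026 and 1016, then 510.5 and 524 against 1417 and 1419. The groups did not overlap. The log2 difference before the block was 1.13 ± 0.024 (2.19-fold, edgeR adjusted p = 7.58e-117). Afterwards it was 1.25 ± 0.026, 1.48 ± 0.029 and 1.68 ± 0.028. Across the gene-based scalings it ranged from 0.71 to 1.68.

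Cdk4 (ENSMUSG00000006728, chromosome 10, 126899403 to 126903789), whose upstream window holds the 4 E-boxes shown above and whose product shares its role with CDK6, stood at 364 and 363 CPM in WT and 486 and 481 under the Nat10-deficient label at 0 h. Later pairs were 378 and 369.6 against 573 and 571, 288 and 294 against 530.3 and 506, then 301 and 306 against 781 and 788. The groups were apart at all times. Over the 4 times its log2 difference was 0.59 ± 0.029 (1.50-fold), 0.88 ± 0.030, 1.23 ± 0.036 and 1.59 ± 0.035. Tspan31 on the other strand shares 19.7% of its exonic bases. Per kilobase of annotated exon, Cdk6 mRNA was 0.386 of Cdk4 mRNA in WT at 0 h and 0.562 under the Nat10-deficient label, and 0.396 and 0.42 at 5 h.

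Cdk2 (ENSMUSG00000025358, chromosome 10, 128533808 to 128540900), the kinase of the E cyclins, held 166 and 169 CPM in WT and 194 and 188 under the Nat10-deficient label at 0 h. Later pairs were 129 and 129 against 192 and 188, 104.5 and 103 against 171 and 171, then 74.1 and 65.6 against 145 and 137. Its WT level was lower at each later time than before, and the groups did not overlap. The log2 difference was 0.36 ± 0.041, 0.82 ± 0.047, 1.12 ± 0.059 and 1.23 ± 0.065 at 0, 1, 3 and 5 h, and at 0 h -0.03 under long-lived scaling.

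The 2 inhibitors were the mRNAs of lowest level per length at 0 h. Cdkn1b (ENSMUSG00000003031, chromosome 6, 134897364 to 134902476) held 16.8 and 16.2 CPM in WT and 18.1 and 19.3 under the Nat10-deficient label before the block. At 1 h the pairs were 17.9 and 17.4 against 15.4 and 19.1, at 3 h 28.7 and 27.3 against 20.5 and 20.4, and at 5 h 19.6 and 21.3 against 12.4 and 13.1. The order of the genotypes thus turned, with an overlap at 1 h. The log2 differences over the 4 times were 0.36 ± 0.121, 0.23 ± 0.135, -0.06 ± 0.145 and -0.45 ± 0.162 (edgeR adjusted p = 0.00752, 0.135, 0.763 and 0.0106). The call at 0 h was lost with RLE factors (0.26, edgeR adjusted p = 0.0591), in DESeq2 (0.26, adjusted p = 0.0776) and without the second Nat10-deficient file (0.33, edgeR adjusted p = 0.0581). Long-lived scaling gave -0.03 at 0 h (edgeR adjusted p = 0.88), and lower calls of -0.31, -0.82 and -1.03 at 1, 3 and 5 h (edgeR adjusted p = 0.036 at 1 h and 1.87e-07 at 3 h). Over the 12 comparisons of time and gene-based scaling, Cdkn1b was called higher in 1 and lower in 5, so the small value at 3 h under TMM does not show that the labels were alike. At 5 h it was -0.39 without the first Nat10-deficient file, -0.32 without the first WT file and -0.21 without the second (edgeR adjusted p = 0.0586, 0.21 and 0.424). At 1 h it was 0.37 without the first Nat10-deficient file (edgeR adjusted p = 0.0384).

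Cdkn1c (ENSMUSG00000037664, chromosome 7, 143012076 to 143014787), whose product p57 is the inhibitor most tied to stem cell quiescence, was counted rarely. In the order of the times, the WT files had 42 and 48 counts, 26 and 16, 0 and 8, then 9 and 9. The files labelled Nat10-deficient had 24 and 14, 9 and 11, 6 and 10, and 0 and 0. In CPM this was 3.27 and 4.11 against 1.53 and 0.871 at 0 h. The difference was log2 -1.43 ± 0.402 at 0 h (edgeR adjusted p = 0.00108) and -1.49 ± 0.496 at 1 h (edgeR adjusted p = 0.00556), the latter -1.30 without the first WT file (edgeR adjusted p = 0.0707). At 3 h the groups overlapped (log2 0.12 ± 0.731), and the value was -0.25 without the second Nat10-deficient file, -0.88 without the first WT file and 6.17 without the second, a fitted value that rests on the 0 counts of the first (edgeR adjusted p = 0.0242). At 5 h there were 18 WT counts against 0. With the WT counts taken as exact and the empty group held at 3 counts over the group, Cdkn1c was at least 17.8-fold lower under the Nat10-deficient label with TMM scaling. Counting error in the 18 WT counts is left out, and a bound that included it would be lower. The bound was 18.6-fold with RLE factors, 26.6-fold with long-lived scaling and 7.27-fold in CPM over all gene counts. Per ERCC count, 3 counts in the empty group lie above the WT level, so no bound can be given, and the ERCC-scaled difference was not called (edgeR adjusted p = 0.22). Gm44732, which shares 30.7% of its exonic bases on the other strand, had 0 counts.

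After actinomycin D, counts per ERCC count are used as a measure of the mRNA left, with each time a separate sort whose cells can differ. In bulk RNA, fewer cells of a type and less RNA per cell cannot be told apart. Over 13905 genes with at least 20 summed counts per genotype at 0 h, the median left in WT at 1, 3 and 5 h was 46.6%, 33.6% and 16.9%. Under the Nat10-deficient label it was 37.7%, 24.0% and 12.5%. All gene counts together, antibody genes included, were at 61.4%, 80.5% and 71.3% of 0 h per ERCC count in WT, a rise after 1 h. Under the other label they were at 38.2%, 35.0% and 17.7%. In CPM outside immunoglobulin and J-chain genes, the median at 1 h was 100% in WT and 101% under the other label. Whether RNA or spike-in input differed between times was not tested. The percentages and half-lives below may thus not reflect mRNA loss alone.

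Of the D cyclins in WT, Ccnd1 was at 40.8%, 24.3% and 12.9% of its 0 h value at 1, 3 and 5 h, Ccnd2 at 55.7%, 38.7% and 22.5%, and Ccnd3 at 41.9%, 36.9% and 17.7%. In the files labelled Nat10-deficient, Ccnd1 was at 33.6%, 24.0% and 6.83%, Ccnd2 at 25.6%, 19.1% and 6.93%, and Ccnd3 at 37.3%, 26.5% and 13.4%. Ccnd1 and Ccnd2 ended below the median of all genes there, whereas in WT Ccnd2 ended above it. The kinases in WT were at 20.8% (Cdk4), 21.3% (Cdk6) and 10.4% (Cdk2) at 5 h, and under the other label at 29.5%, 22.1% and 13.5%.

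Several courses did not fall steadily. In WT, Ccne2 was at 37.6%, 75.8% and 40.9% at the 3 later times, and Cdkn1b at 49.5%, 63.9% and 30.8%. Ccne1 was at 41.1%, 44.5% and 30.5% in WT and at 36.2%, 27.3% and 28.1% under the Nat10-deficient label. Cdk4 was at 43.8%, 29.3% and 29.5% under that label. A straight line describes such courses poorly.

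**Figure D4:**
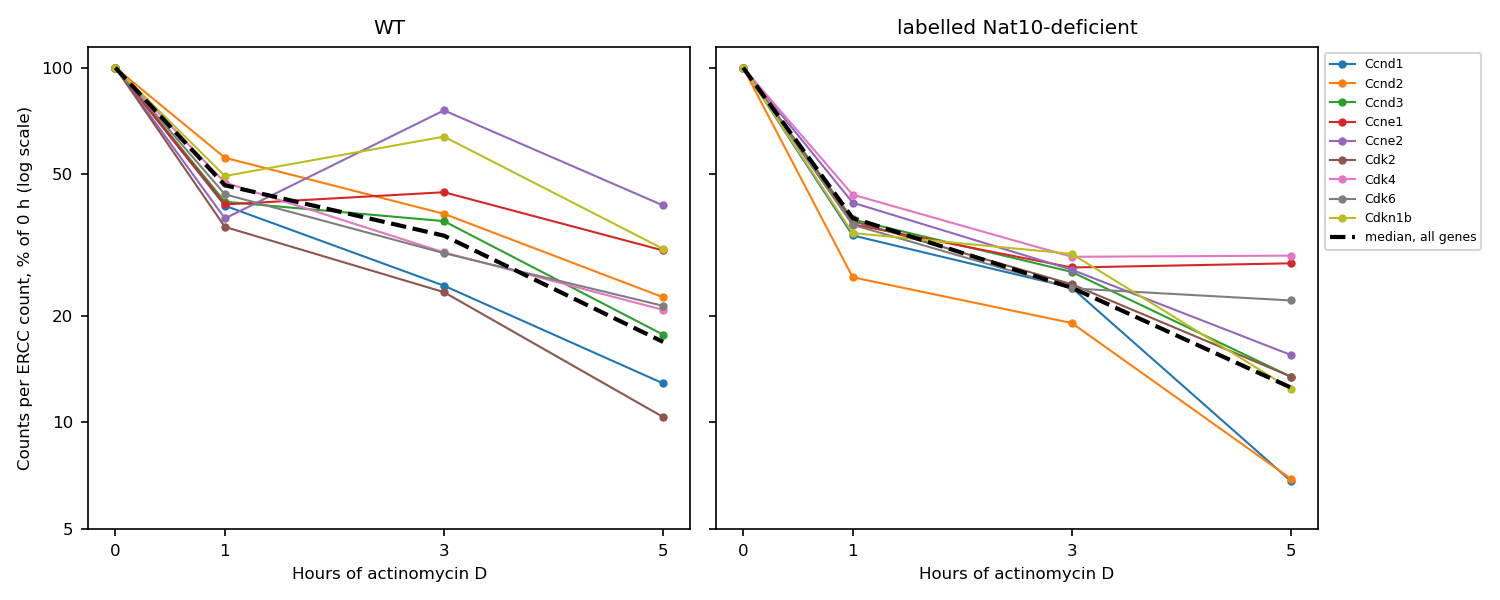
Counts per ERCC count as a percentage of 0 h (log axis) against hours of actinomycin D in WT (left) and in files labelled Nat10-deficient (right). Coloured lines are group means of 9 genes (Cdkn1c left out for its low counts) and the dashed line is the median of 13905 genes. Ccne2 stands at 75.8% in WT at 3 h, and Ccnd1 and Ccnd2 end at 6.83% and 6.93% on the right.

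As linear slopes on the ERCC scale, all 10 genes fell in both genotypes (edgeR). Without 5 h the WT slope of Ccne2 was not called (-0.04 ± 0.034, edgeR adjusted p = 0.253). Of all genes tested, 57.4% fell and 11.1% rose in WT, and 71.3% fell and 3.19% rose under the other label. The median slope of all genes was -0.36 log2 per hour in WT (half-life 2.75 h) and -0.48 under the other label (2.08 h). Each half-life here is the inverse of a linear slope over 0 to 5 h, and not a measured time of loss. The median of 13905 genes was already at 46.6% in WT and 37.7% under the other label at 1 h. In WT, Cdk2 (-0.59 ± 0.012, half-life 1.70 h) and Ccnd1 (-0.55 ± 0.014, 1.83 h) had the steepest slopes of the well-counted members, and Ccne2 (-0.14 ± 0.020) the flattest. Ccnd3 (-0.43), Cdk4 (-0.42), Cdk6 (-0.40) and Ccnd2 (-0.40) lay near the median, Ccne1 (-0.27) and Cdkn1b (-0.26) were flatter, and Cdkn1c was at -0.54.

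Under the Nat10-deficient label, Ccnd1 (-0.69 ± 0.015, half-life 1.44 h) and Ccnd2 (-0.67 ± 0.008, 1.49 h) were steepest of the 9 genes other than Cdkn1c, and Ccne1 (-0.31 ± 0.010, 3.20 h) and Cdk4 (-0.32 ± 0.007, 3.15 h) flattest. Cdk2 (-0.52), Cdkn1b (-0.52), Ccnd3 (-0.52), Ccne2 (-0.49) and Cdk6 (-0.39) lay between. At 1 h, Ccne1 and Cdk4 were already at 36.2% and 43.8% of 0 h under this label, so their half-lives do not describe the first hour. Cdkn1c was at -2.27 ± 0.252, a fitted value that rests on 0 counts at 5 h, and at -1.36 ± 0.685 with the files summed. With the files summed, 6 genes fell in WT (the D cyclins, Cdk2, Cdk4 and Cdk6), against 26.7% of all genes that fell and 0.845% that rose. Under the Nat10-deficient label 8 did, all but Cdk4 (edgeR adjusted p = 0.0658) and Cdkn1c (edgeR adjusted p = 0.117), against 35.4% that fell and 0.0120% that rose.

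The slopes differed between genotypes for 8 of the 10 genes on the ERCC scale (edgeR). Ccnd2 (-0.27 ± 0.011), Ccne2 (-0.35 ± 0.025), Cdkn1b (-0.25 ± 0.039), Ccnd1 (-0.15 ± 0.022), Ccnd3 (-0.08 ± 0.011) and Cdkn1c fell faster under the Nat10-deficient label, and Cdk4 (0.10 ± 0.011) and Cdk2 (0.07 ± 0.016) more slowly. Of all genes, 32.1% were called lower and 15.7% higher, with a median of -0.10, so that Ccnd3 differed by less than the median gene. Ccne1 (-0.04 ± 0.019, edgeR adjusted p = 0.0586) and Cdk6 (0.02 ± 0.010, edgeR adjusted p = 0.147) were not called. In DESeq2 Ccne1 was called at -0.04 (adjusted p = 0.0499), and with RLE or TMM scaling it was called the other way (0.05 in each). Cdk6 was called higher under each gene-based scaling, at 0.11 with RLE (edgeR adjusted p = 2.22e-37), 0.11 with TMM (1.07e-36) and 0.07 with long-lived scaling (2.46e-16). Leaving out single libraries changed calls for 3 genes: Ccne1 without the first Nat10-deficient file at 1 h (-0.05, edgeR adjusted p = 0.0437), Cdk6 without the first at 5 h (0.02, edgeR adjusted p = 0.0252), and Cdkn1c without the second WT file at 3 h (-1.50, edgeR adjusted p = 1).

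The difference rests on the last time for several genes. Without 5 h, that of Ccnd1 was 0.01 and that of Cdk4 -0.01, neither called (edgeR adjusted p = 0.929 and 0.971). That of Cdk6 was then called lower, at -0.10 (edgeR adjusted p = 1.16e-07). Those of Ccnd2, Ccnd3, Ccne2 and Cdkn1b kept their direction and call, and that of Ccne1 was called at -0.24 (edgeR adjusted p = 1.72e-10). Cdk2 was at 0.02 without 5 h (edgeR adjusted p = 0.588). With the files summed, no difference was called among the 10 (edgeR adjusted p from 0.861 to 1, none at an unadjusted p under 0.05), against 0.0399% of all genes called higher and 0.239% lower.

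Relative to the other genes (TMM), member slopes went in both directions, in numbers not far from the shares of all genes. In WT, Ccne2 (0.25), Cdkn1b (0.13) and Ccne1 (0.12), 3 genes, rose in log2 per hour against 28.1% of all genes, and 4, Cdk2 (-0.19), Ccnd1 (-0.15), Ccnd3 (-0.04) and Cdk4 (-0.03), fell against 31.2%. Under the Nat10-deficient label Ccne1 (0.18), Cdk4 (0.17) and Cdk6 (0.10) rose, against 29.0%, and 5 genes fell, led by Cdkn1c, Ccnd1 (-0.21) and Ccnd2 (-0.19), against 31.8%. The slope of Ccnd2 in WT was -0.01 ± 0.006 (edgeR adjusted p = 0.549). With the files summed, 0 of the 10 were called on this scale (edgeR adjusted p 0.17 or more in WT and 0.355 or more under the other label). Of all genes, 0.750% then rose and 1.85% fell in WT, and 0.0439% rose and 1.14% fell under the other label. For the 10, 2 WT slopes and 4 under the other label had an unadjusted p under 0.05.

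**Figure D5:**
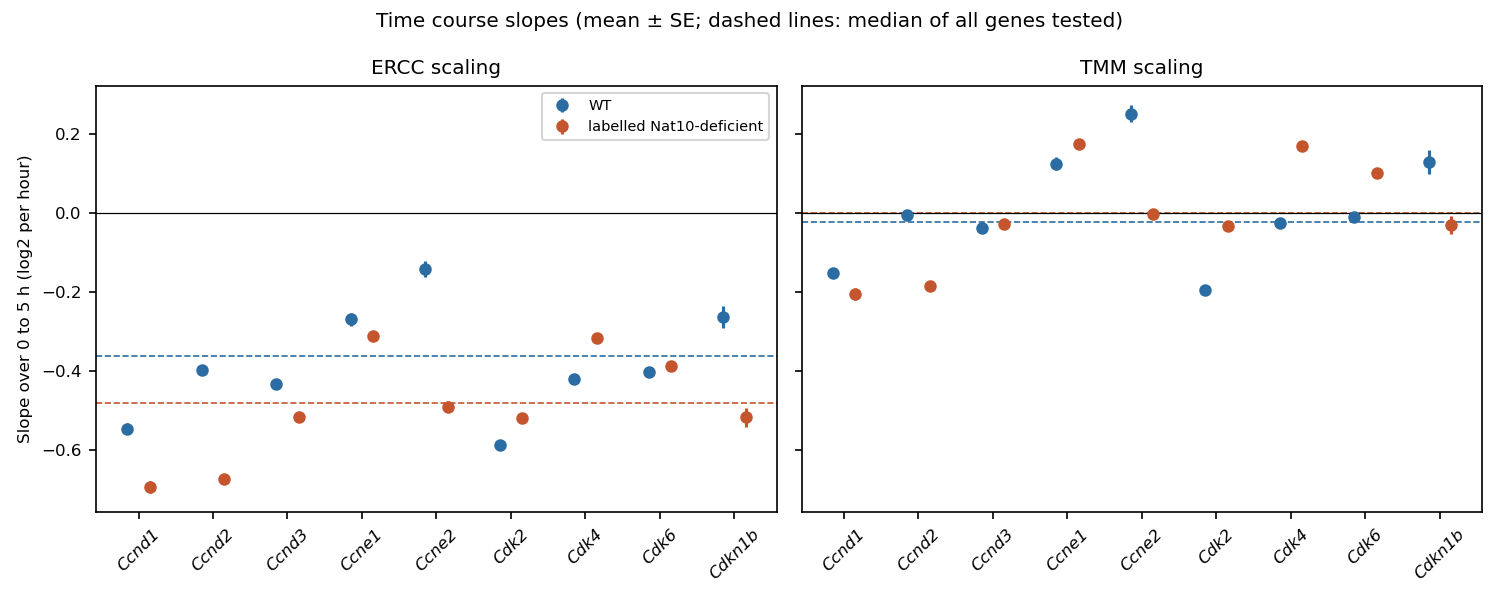
Linear slopes over 0 to 5 h in log2 per hour, mean ± SE, with ERCC scaling (left) and TMM scaling (right), for 9 genes in WT (blue) and in files labelled Nat10-deficient (orange). Dashed lines are medians of all genes tested, -0.36 and -0.48 on the left; all points on the left lie below 0, and points on the right lie on both sides of it.

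The wider machinery was read from lists chosen for function, with earlier results of these data known. Their counts stand beside the shares of all genes called at 0, 1, 3 and 5 h, which were 36.0%, 32.4%, 30.4% and 34.2% higher and 24.2%, 31.8%, 37.0% and 30.1% lower. Of 13 pocket protein and E2F genes, which D-cyclin and E-cyclin kinases control, 5 were higher and 4 lower before the block, and 7 and 4, 8 and 3, then 7 and 3 at the later times. The median log2 difference was 0.01, 0.28, 0.62 and 0.58, and the shares at 0 h lay near those of all genes. Tfdp1, the dimer partner of E2F proteins, differed by log2 0.50, 0.82, 1.45 and 1.93 at 0, 1, 3 and 5 h, and E2f4, a repressive E2F, by 0.54, 0.58, 0.95 and 2.45, all called higher. Tfdp2, a second dimer partner, was lower by log2 differences of -0.16, -0.16 and -0.23 and then higher at 0.58.

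Other CDK inhibitors, 4 tested, had 2, 0, 2 and 0 genes called higher over the 4 times and 0, 2, 1 and 3 called lower. The medians were 0.11, -0.09, 0.13 and -0.89, with no steady course. Cdkn1a (p21) differed by log2 0.08, -0.26, 0.22 and -1.37 over the 4 times, each called. Cdkn2d was at 0.13, 0.12 (not called), 0.83 and -0.56, and Cdkn2c at -0.22 (not called), -0.65, -0.51 and -1.21. Both encode INK4 inhibitors of CDK4 and CDK6. Cdkn2a had too few counts to test.

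Of 9 genes for the turnover of cyclin E and p27, the number called higher over the 4 times was 7, 6, 3 and 6, and the number called lower 1, 3, 4 and 3. The medians were 0.35, 0.33, -0.13 and 0.49, so the list turned at 3 h. Cks1b, the cofactor that lets the SCF ligase recognise p27, differed by log2 1.01, 1.31, 1.66 and 1.75, all called. The ligase subunit Skp1a was higher by 0.15, 0.54, 0.87 and 0.98, and Cul1, its scaffold, stood at 0.35, 0.30, 0.11 (not called) and 1.33.

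Genes that activate or restrain CDKs, 7 in all, had 4, 6, 5 and 6 higher and 1, 1, 2 and 0 lower over the same times. The medians were 0.30, 0.56, 0.57 and 0.76. The chaperone genes Cdc37, which delivers CDK4 and CDK6 to HSP90, and Hsp90ab1 were higher at all times, by log2 0.52, 0.88, 0.89 and 1.02 and by 0.37, 0.56, 0.82 and 0.88. The phosphatase gene Cdc25a stood at 0.30, 0.59, -1.09 and 0.54, each called. Of 4 tested genes of the DREAM and MuvB complexes, which repress cell cycle genes in quiescence, higher calls numbered 3, 3, 1 and 3, and lower calls 1, 0, 2 and 0. The medians were 0.44, 0.54, -0.15 and 0.66, again with a turn at 3 h. Rbbp4, also a chromatin subunit elsewhere, was higher by 0.83, 1.36, 1.26 and 1.05, Lin9 stood at 0.43, 0.48, -0.68 and 0.58, and Lin52 at 0.45, 0.11 (not called), -0.90 and 0.74.

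Markers of cell identity and division moved with the label as well. The HSC identity list gave 13 lower and 1 higher of 14 before the block (median log2 -1.40). At 1 h 14 were lower, at 3 h 6 were lower and 5 higher, and at 5 h 11 were lower and 1 higher. A list of 10 proliferation genes, chosen for S, G2 and M phase, gave 9 higher before the block (median 0.73), then 10, 9 and 9. Its summed CPM over all gene counts at 0 h was 1288 to 1292 in WT and 1880 to 1885 under the Nat10-deficient label. The part of these shifts in the member results was not tested.

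Lists of other cell types also differed at 0 h, in summed CPM over all gene counts. The 9 neutrophil and monocyte markers held 6445 to 6516 in WT and 10675 to 10766 under the Nat10-deficient label, the 7 eosinophil markers 257 to 263 against 1367 to 1381, and the 10 erythroid markers 1027 to 1049 against 1605 to 1622. The 10 plasma cell markers held 34815 to 34939 against 60544 to 60899, and at 5 h 554184 to 556815 against 36963 to 37161. The 8 mast cell and basophil markers held 190 to 198 against 523 to 531 at 0 h, the 8 B and T cell markers 80.1 to 83.0 against 139 to 147, and the 6 megakaryocyte and platelet markers 547 to 556 against 445 to 467. Among defining markers, Mzb1 and Cd3e were at 0 in WT at 0 h, Rag1 in WT at 1 h, Siglecf, Ccr3 and Ppbp in WT at 5 h, and Gp1bb in every group. Their part in the result was not tested. Leaving all antibody genes out of table and scaling changed no call among the 10 genes. For slopes this was to be foreseen, since ERCC scaling does not use antibody genes. Other mRNAs of antibody-producing cells stayed in, so the part of such cells was not tested.

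The genes whose pattern over the 8 group means was closest to a member were found among 8076 genes by Pearson's r of log2 TMM values, as a description. Points share libraries and scaling. For Ccnd2 they were Ncoa2 (r = 0.975), a nuclear receptor coactivator, Itgav (0.973), an integrin subunit, and Samhd1 (0.968), a nucleotide hydrolase. For Cdk6 they were the splicing factor genes U2af2 (0.995) and Snrpb (0.995), and Ewsr1 (0.993), an RNA-binding protein. For Cdkn1c they were Pfkp (0.990), a glycolytic enzyme, Arhgef28 (0.976) and Zfp141 (0.972). Cdkn1c itself lies below the mean log2 CPM of 3 asked of the other genes. Its lowest points, -2.83 and -1.24, come from 0 counts at 5 h under the Nat10-deficient label and 8 counts in WT at 3 h, so its r values rest on points near the floor.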

How the data were processed

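Each deposited value is a count of fragments over the exons of 1 gene; per the file headers, featureCounts 1.6.3 did the counting and ignored strand. STAR, DESeq2 and GRCm39 are named in the submitters' processing notes. Exonic length, another deposited column, was used per kilobase. The counts were fitted as deposited, without rounding or correction. Symbols matched 52081 of 55414 identifiers (94.0%), and 92 further entries are ERCC spike-ins. Genes kept by filterByExpr, 25081 in all, were fitted with edgeR 4.0.16 (quasi-likelihood F test, 8 group means; R 4.3.3). Benjamini-Hochberg adjustment ran over the whole table at 0.05. Genotypes were compared with TMM scaling, slopes (linear contrasts over 0, 1, 3 and 5 h) with ERCC scaling. SE is |log2| divided by the root of F. The scripts were tested on simulated data.

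Groups came from the labels, with 2 files each and total counts of 9142413 to 17274128. No molecular identifiers were used, and bounds cover counting error of the empty group only, not that of the group with counts. The members and lists were chosen with earlier results of these data known. All 10 members are named, and of each list the 3 tested genes with the highest mean CPM and Cdkn1a, and the 3 genes closest in pattern to Ccnd2, Cdk6 and Cdkn1c. Lin54 is not analysed here. Of the deposited files, all 16 were used. Alternatives were DESeq2 1.42.0, other scalings, no filter, a replicate block, no antibody genes, no 5 h, summed files and leaving out each library. The summed fit had 4 residual degrees of freedom against 8, and a median coefficient of variation of 0.923 against 0.135.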

Additional observations from a re-analysis of the deposited data

Results flagged for a closer look

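The course after actinomycin D differed between the genotypes for 8 of the 10 genes by a test of the difference of slopes in edgeR on the ERCC scale (log2 per hour, libraries labelled Nat10-deficient minus WT). The difference was -0.147 for Ccnd1, -0.274 for Ccnd2, -0.0828 for Ccnd3, -0.348 for Ccne2, -0.254 for Cdkn1b and -1.736 for Cdkn1c. It was 0.068 for Cdk2 and 0.1025 for Cdk4. That of Cdkn1c rests on 0 counts at 5 h. Of all genes tested, 32.1% were called lower and 15.7% higher, with a median of -0.10. None of the 8 was called when the files of a group were summed, although values such as -0.148 for Ccnd1, -0.297 for Ccnd2 and -0.336 for Ccne2 moved little; that of Cdkn1c went to -0.825.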

How the results depend on the processing

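The limits are the 2 files per group, which share an alignment, the scaling, and for Cdkn1c 232 counts in all. With the files summed, 0 members were called for the difference of the fitted lines at 0 h and 0 for the slope difference in either direction. In that fit 6 WT slopes fell, and the lines of Ccnd2 at 0 h differed by -0.094. The cause of the changes below was not tested. Shares of all genes called were counted only for the main fits, the TMM slopes and the summed fits. Member counts under the other settings below therefore have no background.

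Replicate numbers do not pair the samples: over 28 pairs of groups and 8524 genes, same-numbered files correlated at -0.00343 to 0.0349, with 0 pairs over 0.1. A fit with a replicate block called 3 members higher and 6 lower for the slope difference, adding Cdk6 (0.0171), and changed no other call.

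ERCC scaling moved the median of all genes by 6.13, 5.64, 5.26 and 5.53 at 0, 1, 3 and 5 h. It left 0 members lower at each time, with 10 higher at 0, 1 and 3 h and 9 at 5 h. With the median of all genes moved so far, these counts are not particular to the members. Ccnd1 turned to 4.87, 4.59, 4.86 and 3.96, Ccnd2 to 5.06, 5.16 and 4.48 at 1, 3 and 5 h, Cdkn1b to 5.40 and 5.19 at 3 and 5 h, and Cdkn1c to 4.69 and 4.21 at 0 and 1 h.

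Long-lived scaling called 4 higher at 0 h, 3 higher and 5 lower at 3 h, and 1 WT slope and 2 slopes under the Nat10-deficient label higher. Differences turned at 0 h for Ccnd2 (-0.353), Ccnd3 (-0.0146), Cdk2 (-0.0274) and Cdkn1b (-0.0331), at 1 h for Cdkn1b (-0.311), at 3 h for Ccnd3 (-0.184), Ccne2 (-0.299) and Cdkn1c (-0.639), and at 5 h for Ccnd3 (-0.0928) and Ccne2 (-0.198). Slopes turned in WT for Ccne1 (0.0232), Ccne2 (0.150) and Cdkn1b (0.0288), under the Nat10-deficient label for Ccne1 (0.0328) and Cdk4 (0.0276), and in their difference for Ccne1 (0.00953).

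TMM slopes gave 3 higher and 4 lower in WT, and 3 and 5 under the Nat10-deficient label. In the difference 4 were higher and 5 lower, against 24.5% and 24.2% of all genes. TMM slopes turned in WT for Ccne1 (0.124), Ccne2 (0.251) and Cdkn1b (0.129). Under the label they turned for Ccne1 (0.175), Cdk4 (0.170) and Cdk6 (0.1005), and in the difference for Ccnd3 (0.0107) and Ccne1 (0.0512).

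RLE factors gave slopes of 5 higher and 2 lower in WT, 4 and 3 under the label and 4 higher in the difference. They turned in WT for Ccnd2 (0.0304), Ccne1 (0.159), Ccne2 (0.286), Cdk4 (0.00958), Cdk6 (0.0256) and Cdkn1b (0.165). Under the label they turned for Ccnd3 (0.00726), Ccne1 (0.211), Ccne2 (0.0330), Cdk2 (0.00287), Cdk4 (0.206), Cdk6 (0.137) and Cdkn1b (0.00524), and in the difference for Ccnd3 (0.0114) and Ccne1 (0.052). Ccnd2 at 0 h was -0.064 and Cdkn1c at 3 h -0.129; DESeq2 gave -0.0641 and -0.14.

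Without 5 h the slope difference had 0 members higher and turned for Ccnd1 (0.0138), Cdk4 (-0.0066), Cdk6 (-0.0974) and Cdkn1c (0.328). Without the low-count filter, Cdkn1b at 3 h was 0.0337. Leaving out each of the 16 libraries kept direction and call in 1106 of 1120 member comparisons. At 3 h it moved Cdkn1b between -0.0895 and 0.00318 and Cdkn1c between -0.883 and 6.17.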
